A study of Mus musculus with 12 samples.

Results

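The Cyp4a and Cyp4f genes encode cytochrome P450 enzymes that place a hydroxyl group on the last carbon of fatty acids and of fatty acid derived signals, a reaction called omega-hydroxylation. The products are oxidised further to dicarboxylic acids, which are shortened in peroxisomes. In liver, Cyp4a10 and Cyp4a14 are textbook targets of PPARα, the nuclear receptor that senses fatty acids, while the Cyp4f enzymes act on leukotrienes and other long or branched substrates.

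The 10 genes described here were chosen by name from the 24062 genes of the deposited gene tables: the 6 Cyp4a genes Cyp4a10, Cyp4a12a, Cyp4a12b, Cyp4a14, Cyp4a31 and Cyp4a32, the 3 Cyp4f genes Cyp4f13, Cyp4f14 and Cyp4f15, and Cyp4v3, the mouse counterpart of a human fatty acid hydroxylase gene linked to a retinal dystrophy. RNA-seq was carried out on liver of 12 female C57BL/6J mice, 6 on the control diet and 6 on a matched diet with BIBB-515, which inhibits lanosterol synthase, an enzyme of cholesterol synthesis. The mice had arrived at an age of 6 weeks, were acclimated for 2 weeks and had all been moved from chow to the control diet 3 days before the experiment. BIBB-515 was dosed at 55 mg/kg body weight, and the diets were fed for 10 days. Both groups share strain, sex and base diet, and libraries of 6 of the 11 mice in each group are analysed here. Mice are named here by their labelled numbers, which are 1 to 6 in the control group and 6 to 11 in the other. Each library is a separate sample in the labels, and the p-values below measure the spread between these samples.

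Total counts on genes ran from 22764819 to 27914647 in the control libraries and from 24223939 to 31058370 in the BIBB-515 libraries. Hepatocyte markers were abundant in every library, with a summed level of 142594 to 160772 CPM (counts relative to the TMM-scaled library total) in the control group and 107898 to 122349 CPM in the BIBB-515 group, which did not overlap. Most of that sum was Alb alone, with a mean of 120094 CPM in the control group and 90923 CPM with BIBB-515. The summed means were 151961 and 117205 CPM. Of the 7 hepatocyte markers 3 were lower with BIBB-515, where 6.48% of all tested genes were, among them Ttr, the thyroid hormone carrier (log2 fold change -0.49), and Alb, serum albumin (-0.40). That count was 1 with no filter on low counts and 2 in 9 of the 12 fits without 1 mouse. The 20 most abundant genes together took 27.7% to 29.8% of the control counts and 23.6% to 25.2% of the BIBB-515 counts. These differences move with the diet beside every result below, and their part in the Cyp4 results was not tested. In whole liver, fewer cells of a type and less RNA per cell cannot be told apart.

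The genes sit in 2 clusters of neighbours. On mm10, the 6 Cyp4a genes span 323.3 kb of chromosome 4 from position 115299046 to 115622366, and the 3 Cyp4f genes span 261.7 kb of chromosome 17 from position 32685659 to 32947361. Cyp4v3 lies apart on chromosome 8, from 45305802 to 45333196. No member's exons overlap those of another gene in the tables.

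What the family shares at the level of sequence is the loop that holds the heme iron through a cysteine. The 30 coding bases of that signature are shown 5′ to 3′ from the GENCODE M21 transcripts, with the cysteine codon in capitals, because they show how close the members are in the part that makes them P450 enzymes. In all 10 genes the stretch is split by an intron.

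Cyp4a10: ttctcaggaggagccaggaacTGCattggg
Cyp4a14: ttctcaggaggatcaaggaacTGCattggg
Cyp4a12a: ttctcaggaggagcaaggaacTGCattggg
Cyp4f13: ttctcagcggggaccaggaacTGCatagga
Cyp4f14: ttctcggcgggacccaggaacTGCatagga
Cyp4f15: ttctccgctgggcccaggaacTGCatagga
Cyp4v3: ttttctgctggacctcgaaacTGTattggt

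Cyp4a31 and Cyp4a32 have the Cyp4a10 stretch letter for letter, and Cyp4a12b has that of Cyp4a12a. Against Cyp4a10, Cyp4a12a differs at 1 base, Cyp4a14 at 2, Cyp4f13 and Cyp4f14 at 6 each, Cyp4f15 at 7 and Cyp4v3 at 10. The Cyp4a10 stretch lies on the plus strand in chr4:115529502-115529518 and chr4:115532531-115532543, and its cysteine is codon 456. The Cyp4f14 stretch lies on the minus strand in chr17:32906049-32906065 and chr17:32905666-32905678, and its cysteine is codon 468.

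Cyp4a10, Cyp4a31 and Cyp4a32 are near copies of one another, which bears on how well their reads can be told apart. Over the whole coding sequence, Cyp4a10 and Cyp4a32 were 97.2% identical, Cyp4a10 and Cyp4a31 96.6%, and Cyp4a31 and Cyp4a32 96.0%. Of all stretches of 50 coding bases, 40.6% in Cyp4a10, 31.5% in Cyp4a31 and 46.8% in Cyp4a32 also occur in another gene. The read length is not given in the sources used here, and 50 bases was set for this comparison. The tables of primary alignments held 0.033%, 0.153% and 0.403% more reads for Cyp4a10, Cyp4a31 and Cyp4a32 than the gene tables. Counts for these 3 genes may be uncertain where reads fall on shared stretches. The primary alignments added few reads to them, and the size of that uncertainty was not tested. The 60 coding bases in which Cyp4a31 has most bases of its own are shown for the 3 copies, with capitals at bases that differ from Cyp4a10.

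Cyp4a10: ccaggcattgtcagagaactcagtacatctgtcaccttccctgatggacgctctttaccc
Cyp4a31: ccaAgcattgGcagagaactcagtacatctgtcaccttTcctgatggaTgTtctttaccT
Cyp4a32: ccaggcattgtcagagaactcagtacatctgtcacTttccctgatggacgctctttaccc

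These windows lie on the plus strand of mm10 at chr4:115525855-115525914, chr4:115571315-115571374 and chr4:115611574-115611633. Cyp4a31 differs from both copies at 6 of these bases and at 36 of its 1530 coding bases in all. Cyp4a14 is more distant, with 76.1% identity to Cyp4a10 and only 0.407% of its stretches shared with another gene, the pseudogene Cyp4a30-ps. In the Cyp4f group, Cyp4f14 and Cyp4f15 were 82.2% identical, and 3.02% to 3.87% of the stretches of the 3 genes were shared. Cyp4a12a and Cyp4a12b were 98.5% identical and shared 54.9% of their stretches with each other. Cyp4v3 shared 13.8% of its stretches with the annotated gene Gm45753.

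Cyp4a14 was the most abundant member per base of exon in the control livers, at 439 ± 195 CPM per kb (SD, n = 6), followed by Cyp4a10 at 317 ± 181 CPM per kb. Cyp4f14 came next with 129 ± 28.3 CPM per kb, then Cyp4f15 with 82.0 ± 13.8, Cyp4v3 with 63.5 ± 10.9 and Cyp4f13 with 41.2 ± 2.39 CPM per kb. Cyp4a31 and Cyp4a32 stood at 23.9 ± 10.9 and 22.9 ± 7.81 CPM per kb, and Cyp4a31 was the higher of the pair in 2 of 6 control mice. In each of the other neighbouring steps down to Cyp4a32, the higher gene was higher in 6 of 6 control mice. With BIBB-515 the order held from Cyp4a14, at 350 ± 73.6 CPM per kb, to Cyp4a10, at 300 ± 74.1, but Cyp4a14 was the higher in only 5 of 6 mice. Cyp4f15 (90.8 ± 3.44 CPM per kb) then stood level with Cyp4f14 (89.8 ± 13.3 CPM per kb), Cyp4f15 being the higher in 4 of 6 mice. Cyp4a32 was above Cyp4a31 in 6 of 6 BIBB-515 mice, with ranges that did not overlap. The rest of the order was as in the control group.

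**Figure D1:**
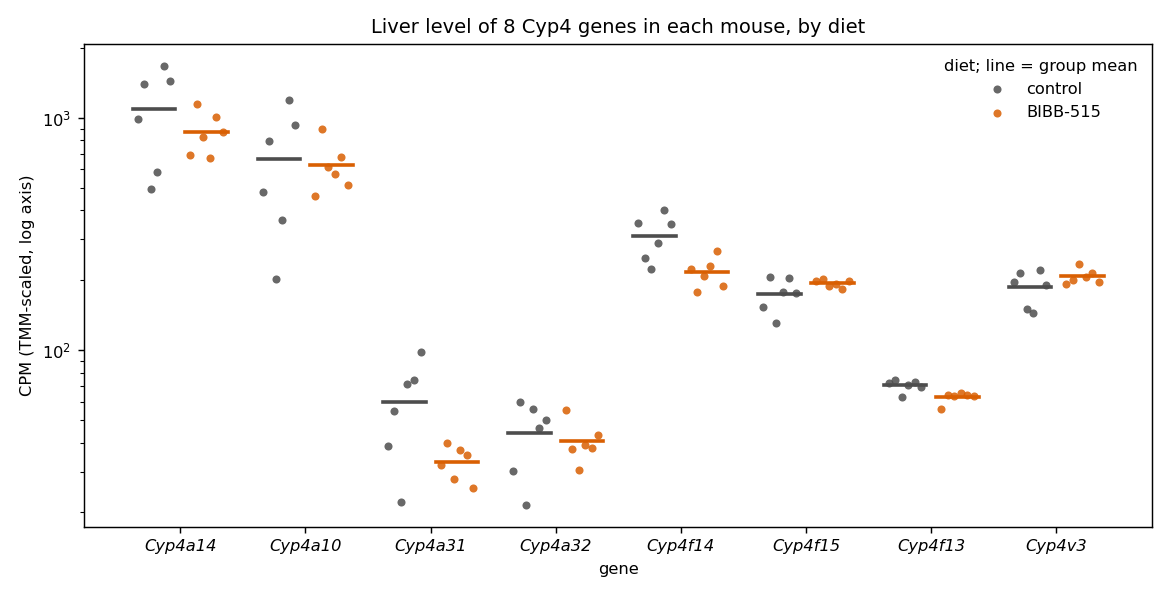
CPM (vertical log axis) of the 8 members past the count filter in each of the 12 mice, with grey points for the control diet, orange points for BIBB-515 and a line at each group mean. The 2 groups overlap for every gene, and the control points of the Cyp4a genes are spread more widely than the BIBB-515 points.

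Of the 10 members, 8 passed the filter of at least 1 CPM in at least 2 of 12 libraries. By edgeR's quasi-likelihood test with Benjamini-Hochberg adjustment over 12481 genes, 2 of these 8 were lower with BIBB-515 at an adjusted p under 0.05, Cyp4f14 and Cyp4a31, where 6.48% of all tested genes were called lower. None was called higher, against 7.18% of all tested genes, none had an unadjusted p under 0.05 in that direction, and DESeq2, limma-voom and edgeR's likelihood ratio test called none higher either. In both directions together, 13.7% of all tested genes were called. The log2 fold change was below 0 in 6 members and above 0 in 2, with a median of -0.14 beside -0.01 over all tested genes. In no member did the 2 groups fail to overlap, a pattern seen in 7.07% of all tested genes.

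**Figure D2:**
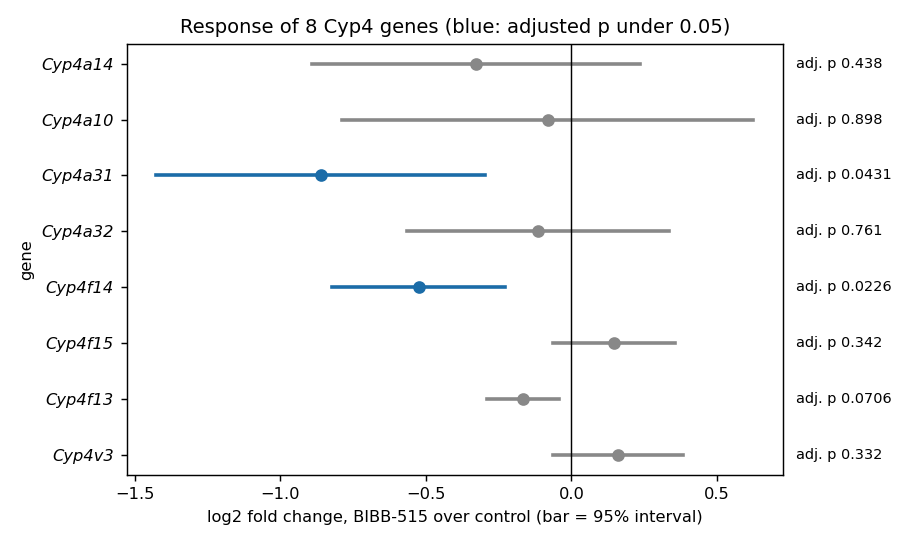
Log2 fold change of BIBB-515 over control with its 95% interval (horizontal axis) for the 8 members past the filter, with the adjusted p at the right. The intervals of Cyp4f14, Cyp4a31 and Cyp4f13 lie below 0, and blue marks the 2 with an adjusted p under 0.05.

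Cyp4f14, a hydroxylase known for inactivating leukotriene B4, had the lowest adjusted p of the members. In the control mice its lowest value was 224 CPM, its median 320 and its highest 401. In the BIBB-515 mice the lowest was 178 CPM, the median 216 and the highest 267. The groups overlapped, but 4 of 6 BIBB-515 mice lay below the lowest control mouse and 6 of 6 lay below the control mean. The mean fell from 311 ± 68.2 to 216 ± 32.0 CPM (SD, n = 6 each), a log2 fold change of -0.53 (SE 0.14, 95% interval -0.82 to -0.23, adjusted p = 0.0226, edgeR). An exact permutation test of the diet labels on this gene alone, on both sides, gave p = 0.0152, where the smallest p that 6 mice against 6 can give is 0.00216. All of the 14 exon rows of Cyp4f14 with a mean of at least 100 counts were lower, by -0.55 to -0.44 on the log2 scale. Some of these rows are overlapping versions of the same exon, from chr17:32916688, and share reads. Here and below, exon rows of a gene are not replicates of one another and add no independent evidence. Leaving out control mouse 1, BIBB-515 mouse 7 or BIBB-515 mouse 11 moved the adjusted p just past the threshold, to 0.0502, 0.0511 and 0.0531.

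Cyp4a31, one of the near copies of Cyp4a10, had the largest fold of the members tested. Its control values ran from 22.3 CPM over a median of 63.0 to 98.4, and its BIBB-515 values from 25.5 over a median of 33.8 to 39.9. Of the control mice, 4 lay above the highest BIBB-515 mouse, whereas control mouse 3 was the lowest of all 12. The mean fell from 59.96 ± 27.3 to 33.0 ± 5.56 CPM, a log2 fold change of -0.86 (SE 0.26, 95% interval -1.43 to -0.30, adjusted p = 0.0431, edgeR), and 6 of 6 BIBB-515 mice were below the control mean. The exact permutation test gave p = 0.0584. The call lay close to the threshold of 0.05. It was kept when control mouse 1 or 3 was left out. When any of the other 10 was left out, it was lost, with an adjusted p of 0.0505 to 0.0948 (edgeR). Over the 12 fits without 1 mouse, the log2 fold change ran from -1.02 to -0.66. Without control mouse 3 the log2 fold change was -1.02 with an adjusted p of 0.00304.

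The exons of Cyp4a31 allow a look at stretches that its copies do not share. The last exon, chr4:115577936-115579015 on the plus strand, held 6607 of the counts over the 12 mice, and 11.9% of its stretches of 50 bases occur in other genes. Its mean was 28.0 CPM in the control mice and 14.9 CPM with BIBB-515, a log2 ratio of -0.91. The 4th exon, with 3.13% of its stretches shared, had a log2 ratio of -0.71. The 8th, with 40.3% shared, had -1.01. All of the 7 exon rows of Cyp4a31 with enough counts were lower, by -1.01 to -0.71. In Cyp4a32, 6 of 7 such rows were lower, from -0.40 to 0.04.

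**Figure D3:**
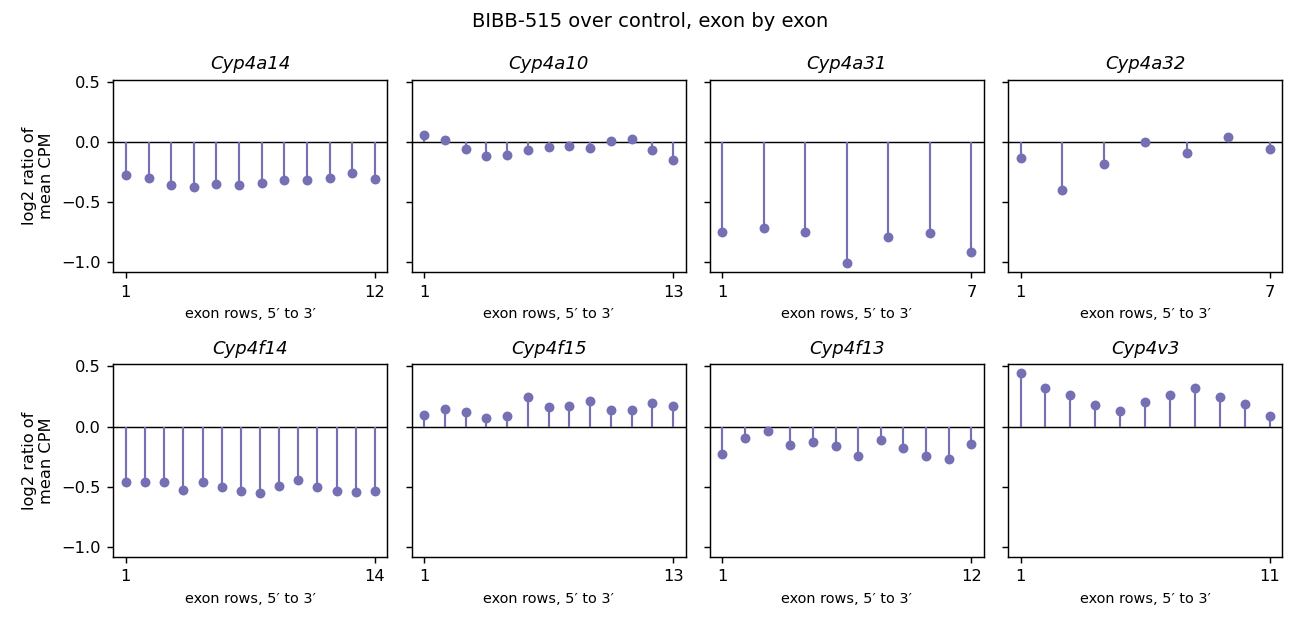
Log2 ratio of the mean CPM, BIBB-515 over control (vertical axis), for each exon row with a mean of at least 100 counts, in transcript order from left to right, for 8 members. All of the Cyp4f14, Cyp4a31, Cyp4a14 and Cyp4f13 points lie below 0, and all of the Cyp4f15 and Cyp4v3 points lie above 0.

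Cyp4a14 and Cyp4a10, the 2 abundant PPARα targets, had wide control ranges and no call. Cyp4a14 ran from 493 CPM over a median of 1190 to 1674 in the control mice, and from 675 over 851 to 1151 with BIBB-515. The BIBB-515 range lay wholly inside the control range. Its log2 fold change was -0.33 (95% interval -0.89 to 0.23, adjusted p = 0.438, edgeR), and all of its 12 exon rows were lower, by -0.38 to -0.26. Cyp4a10 ran from 203 CPM over a median of 639 to 1200 in the control mice, and from 462 over 597 to 900 with BIBB-515. The BIBB-515 range again lay inside that of the control mice. The log2 fold change was -0.08 (95% interval -0.79 to 0.62, adjusted p = 0.898, edgeR), an interval that spans a fold of 0.579 to 1.54. Of its 13 exon rows 9 were lower and 4 higher.

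Cyp4a32 did not pass the test either. Its values ran from 21.6 CPM over a median of 48.2 to 59.8 in the control mice and from 30.5 over 38.5 to 55.3 with BIBB-515, one range inside the other. The log2 fold change was -0.11 (95% interval -0.57 to 0.34, adjusted p = 0.761, edgeR).

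Cyp4f13 varied little between mice. It ran from 63.1 CPM over a median of 71.6 to 74.4 in the control mice and from 56.0 over 64.0 to 65.4 with BIBB-515, and 5 control mice lay above the highest BIBB-515 mouse. Its log2 fold change was -0.17 (SE 0.06, 95% interval -0.29 to -0.04), with an adjusted p of 0.0706 by edgeR and an exact permutation p of 0.013, so that it missed the threshold after adjustment. All of its 12 exon rows were lower, by -0.27 to -0.04. A few alternatives put it past the threshold: DESeq2 gave an adjusted p of 0.0368, a fit with 1 surrogate variable 0.0438, and the fit without control mouse 3 0.0370. These were 2 of 8 alternatives and 1 of 12 fits without 1 mouse. The others missed the threshold, with an adjusted p of 0.103 by the likelihood ratio test and 0.139 with no filter on low counts (edgeR).

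Among the Cyp4f members described here, Cyp4f15 was the one on the other side of 0. It ran from 131 CPM over a median of 177 to 207 in the control mice and from 182 over 195 to 202 with BIBB-515, so the BIBB-515 mice sat within the control range. Its log2 fold change was 0.15 (95% interval -0.06 to 0.36, adjusted p = 0.342, edgeR). Cyp4v3 ran from 144 CPM over a median of 193 to 221 in the control mice and from 192 over 204 to 236 with BIBB-515, with 1 BIBB-515 mouse above the highest control mouse. Its log2 fold change was 0.16 (95% interval -0.06 to 0.38, adjusted p = 0.332, edgeR). Every exon row with enough counts, 13 in Cyp4f15 and 11 in Cyp4v3, was higher with BIBB-515.

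Cyp4a12a and Cyp4a12b, which encode the hydroxylases typical of male mouse liver and kidney, were near the detection limit in these female livers. Cyp4a12a had 15 counts over the 6 control mice, or 0.0999 CPM of the summed library totals (95% Poisson interval 0.0559 to 0.165), and 60 counts over the 6 BIBB-515 mice, or 0.364 CPM (0.278 to 0.468). Of those 60 counts, 34 came from BIBB-515 mouse 7. Without that mouse, left out after its counts were seen, the BIBB-515 group had 26 counts, or 0.194 CPM (0.127 to 0.285), so that the interval overlaps that of the control mice. Cyp4a12b had 7 control counts, or 0.0466 CPM (0.0187 to 0.0960), and 29 BIBB-515 counts, or 0.176 CPM (0.118 to 0.252), of which 15 were in mouse 7. Without mouse 7 it had 14 counts, or 0.105 CPM (0.0572 to 0.175). The intervals cover counting error only, and neither gene entered the test. For both genes the control mean was exceeded in 6 of 6 BIBB-515 mice, but the counts of the groups overlapped. The highest control mouse was exceeded by 2 BIBB-515 mice in Cyp4a12a and by 3 in Cyp4a12b. BIBB-515 mice 9, 10 and 11 had 3 counts of Cyp4a12a each, as did control mice 2 and 6. The tables of primary alignments held 0 further reads for either gene, but with 54.9% of their stretches shared the split between them is uncertain.

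Within the subfamilies, the balance between members differed by diet, which is given here as a description. Cyp4f14 made up 50.8% ± 5.18 of the summed Cyp4f level per kb in the control mice and 41.1% ± 4.09 with BIBB-515, and Cyp4f15 made up 32.6% ± 4.11 and 41.9% ± 3.32 (SD, n = 6). The ratio of Cyp4f14 to Cyp4f15 in CPM per kb was 1.59 ± 0.333 in the control mice and 0.994 ± 0.182 with BIBB-515. For this ratio, 5 of 6 BIBB-515 mice lay below the lowest control mouse. Control mouse 2, at 1.062, was the control mouse that the BIBB-515 range reached. BIBB-515 mouse 9 lay only just below it, at 1.059.

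Among the Cyp4a genes, Cyp4a14 held 55.7% ± 4.97 of the summed level per kb in the control mice and 51.1% ± 3.03 with BIBB-515, and Cyp4a10 held 37.8% ± 4.63 and 43.6% ± 3.21. The ratio of Cyp4a10 to Cyp4a14 in CPM per kb was 0.689 ± 0.133 and 0.859 ± 0.111, with 6 of 6 BIBB-515 mice above the control mean and 3 above the highest control mouse. The ratio of Cyp4a31 to Cyp4a32 in CPM per kb was 1.03 ± 0.294 in the control mice and 0.641 ± 0.156 with BIBB-515, with 6 of 6 BIBB-515 mice below the control mean. Summed over the 6 genes, the Cyp4a level was 1861 ± 882 CPM in the control mice and 1572 ± 326 CPM with BIBB-515. Summed over the 3 genes, the Cyp4f level was 556 ± 86.2 and 472 ± 26.2 CPM.

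**Figure D4:**
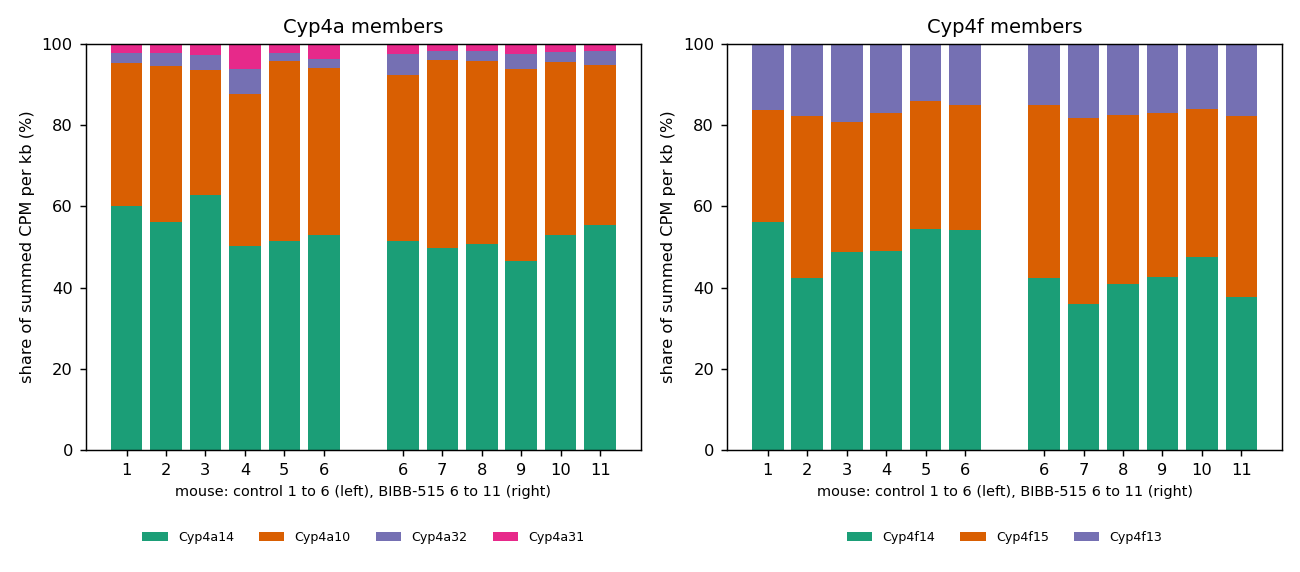
Share of the summed CPM per kb (vertical axis, %) taken by each Cyp4a gene (left) and Cyp4f gene (right) in each mouse, control mice 1 to 6 on the left and BIBB-515 mice 6 to 11 on the right of each panel. The mean Cyp4f14 share is 50.8% in the control mice and 41.1% with BIBB-515; Cyp4a12a and Cyp4a12b are too low to draw.

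The control mice differed among themselves more than the BIBB-515 mice. The highest control value of Cyp4a10 was 5.91 times the lowest, and the highest BIBB-515 value 1.95 times the lowest. For Cyp4a14 these ranges were 3.39 and 1.71 times, and for Cyp4a31 4.42 and 1.56 times. The SD of log2 CPM was wider in the control mice for all of the 8 members past the filter, and so it was for 78.0% of all tested genes, so the wider control spread is not particular to this family. The median SD of the 8 members was 0.45 in the control mice and 0.23 with BIBB-515, beside 0.19 and 0.13 over all tested genes. Cyp4a10 stood above 99.6% of the tested genes in its control SD and Cyp4f13 above only 6.8%. Control mouse 3 was the lowest control mouse in 7 of the 8 members, and control mouse 5 the highest in 4.

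Mice with more Cyp4a10 also had more Cyp4a14. After each diet's mean was taken out, the log2 CPM of the pair had a Pearson r of 0.955 over the 12 mice (exact permutation within diets, adjusted p = 0.00151 over 28 pairs) and a Spearman rho of 0.909 (adjusted exact permutation p = 0.0369). Without the 2 mice farthest from the median in Cyp4a10 the r was 0.919. It was 0.974 within the control mice and 0.832 within the BIBB-515 mice. This was the 1 pair of 28 past an adjusted p of 0.05. The 28 r values had a median of 0.539 and none was below 0 over all 12 mice or within the control mice. Within the BIBB-515 mice 13 of 28 were below 0. Without the 2 mice farthest from the median in the first gene of each pair, 8 of 28 were. The first gene is the one named earlier in the list of members at the start, so this count depends on that order. Cyp4f14 and Cyp4f15 had an r of 0.231, made up of 0.396 within the control mice and -0.811 within the BIBB-515 mice (adjusted exact permutation p = 0.603 for both diets together).

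**Figure D5:**
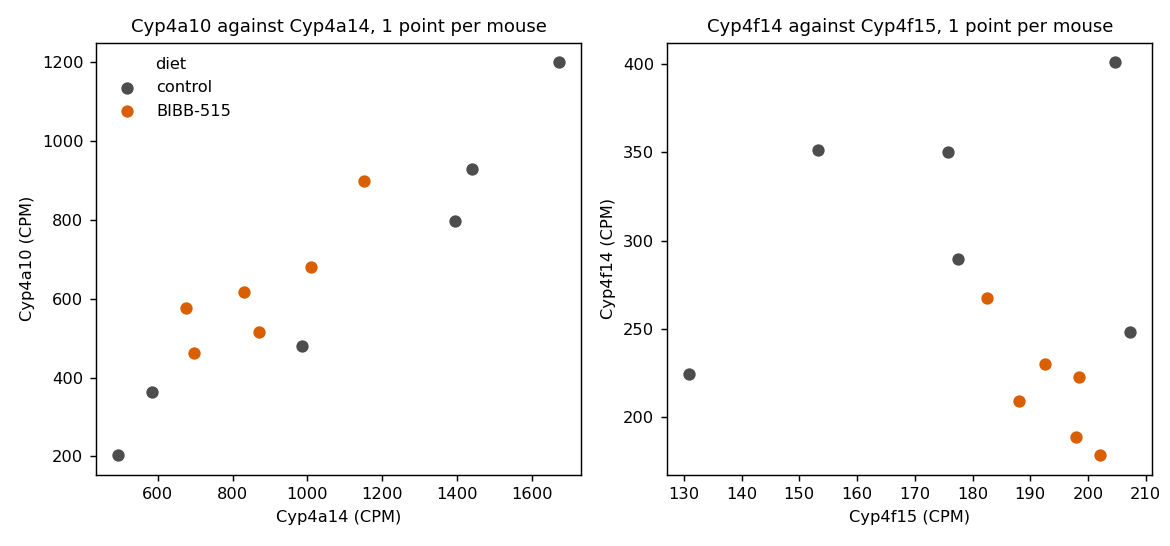
CPM of Cyp4a10 against Cyp4a14 (left) and of Cyp4f14 against Cyp4f15 (right), 1 point for each of the 12 mice, grey for control and orange for BIBB-515. On the left the points of both diets lie higher on both axes together (r of 0.974 and 0.832 within the diets). On the right 5 of 6 BIBB-515 mice have a lower ratio than any control mouse. BIBB-515 mouse 9 does so only narrowly (1.059 beside 1.062 in control mouse 2, in CPM per kb).

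The genes whose level followed the leading members most closely are given as a description, over 12473 other tested genes and the same 12 mice with each diet's mean taken out. For Cyp4a14 these were Hsd17b11 (r = 0.968), Retsat (0.953), Tmem120a (0.949), Pex19, which serves peroxisome assembly (0.944), and Aldh3a2, the fatty aldehyde dehydrogenase (0.937). For Cyp4f14 they were 9030619P08Rik (0.975), Enho, which encodes the secreted peptide adropin (0.951), Cyp2c69, another P450 (0.942), Golga7 (0.934) and Sin3a (0.932). All of them share libraries and depth with the member they follow.

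Among the other Cyp4 genes, 4 of the 12 in the tables passed the filter. Of these, edgeR called 0, beside 13.7% of all tested genes, and 1 had an unadjusted p under 0.05. DESeq2, limma-voom and the likelihood ratio test also called 0 of them. Cyp4a29, Cyp4f37 and Cyp4x1 had 0 counts in every library. Among other targets of PPARα, 27 of 30 were tested, with a median log2 fold change of -0.10. Of these, 0 were called higher and 3 lower, beside 7.18% and 6.48% of all tested genes. At an unadjusted p under 0.05 (edgeR), 1 PPARα target was higher and 5 were lower. The 3 called were Fgf21, a liver hormone of fasting (-1.80, adjusted p = 0.000508), Fabp1, the liver fatty acid carrier (-0.68, adjusted p = 0.0442), and Acot4, an acyl-CoA thioesterase (-0.64, adjusted p = 0.0129), all by edgeR. The summed level of the 30 ran from 10081 to 22031 CPM in the control mice and from 12000 to 16743 CPM with BIBB-515, again the narrower range inside the wider.

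The partners of omega-oxidation include the electron donors of P450 enzymes and the enzymes that carry the hydroxylated fatty acid onward, and some are on the list of PPARα targets too. Of 22 tested, 3 rose and 0 fell, beside 7.18% of all tested genes called higher and 6.48% called lower, with a median log2 fold change of 0.04. They were Cyb5, cytochrome b5 (log2 fold change 0.87), Por, the P450 reductase (0.79), and Adh5, an alcohol dehydrogenase (0.26). The 2 diets did not overlap in 4 of the 22, these 3 and Aldh2, which was not called (adjusted p = 0.17, edgeR) and is named after its values were seen, beside 7.07% of all tested genes. At an unadjusted p under 0.05 (edgeR), 4 partners were higher and 1 was lower. Of 14 receptors and cofactors, 1 rose and 1 fell, with a median of -0.06. Ppargc1a, a coactivator of PPARα, fell by 0.79 on the log2 scale and Esrra, an orphan receptor, rose by 0.39. Ppara itself, named here for its role and not by the rule, had a log2 fold change of -0.27 (adjusted p = 0.164, edgeR).

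Because Cyp4a12a and Cyp4a12b are male-biased, sex-biased liver genes were read from the same fit. Of 11 male-biased genes tested, 3 rose and 3 fell, beside 7.18% and 6.48% of all tested genes, with a median log2 fold change of 0.09. The largest were Serpina4-ps1 (-5.82), Hsd3b5 (-1.89), Slco1a1 (-1.67) and Mup20 (0.91). Of 15 female-biased genes tested, 2 rose and 4 fell, beside the same 7.18% and 6.48%, with a median of -0.65. The largest were A1bg (-3.37), Sult2a1 (2.09), Cux2 (-2.08) and Cyp17a1 (-1.27).

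Markers of other liver cells gave few calls, where edgeR called 7.18% of all tested genes higher and 6.48% lower. Of the bile duct, leukocyte, Kupffer cell and endothelial markers tested (6, 6, 7 and 6), edgeR called 0, with 1 bile duct marker and none of the others at an unadjusted p under 0.05. DESeq2 and the likelihood ratio test each called 1 bile duct marker and limma-voom 0, and none of them called a marker of the other 3 types. The summed bile duct level ran from 63.7 to 117 CPM in the control mice and from 93.2 to 155 CPM with BIBB-515, the leukocyte level from 65.7 to 101 and from 51.2 to 92.1 CPM, the Kupffer level from 333 to 568 and from 344 to 610 CPM, and the endothelial level from 184 to 247 and from 170 to 235 CPM. Of 7 stellate cell markers, Lrat (-0.81, adjusted p = 0.0202) and Dcn (-0.27, adjusted p = 0.0398) fell by edgeR, but only 1 stellate marker was called in 8 of the 12 fits without 1 mouse, with upper-quartile factors and with no filter on low counts. The summed stellate level was 366 to 491 and 361 to 454 CPM. Of 7 fat cell markers, 2 passed the filter and Car3, which hepatocytes also express, rose (1.16). Lep had 0 counts, and Adipoq had at most 1 count in any library. The part of these cells in the Cyp4 results was not tested.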

How the data were processed

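Liver RNA of 12 mice was analysed. Per the submitters' processing notes, the authors aligned reads to mm10 with STAR 2.5.3a and counted them with featureCounts of Subread 1.6.3. The deposited values are raw counts per gene, exon and transcript, and a further table counts primary alignments. The gene tables were used, since the transcript tables hold few of the Cyp4f14 and Cyp4a31 reads. The members and gene lists were chosen with earlier results of these data known.

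Counts were scaled by TMM in edgeR 4.0.16 (R 4.3.3), kept at 1 CPM or more in at least 2 of 12 libraries, the filter the study gives for its human tissues, and tested across all genes with the quasi-likelihood test, with a threshold of 0.05 on Benjamini-Hochberg adjusted p. The common biological coefficient of variation was 0.143. Permutation tests and correlations used log2(CPM + 0.5). CPM per kb divides by exon length. Sums, shares, ratios and exons were not tested. On simulated data for BIBB-515 against control (12481 genes, 200 changed), 68.7% of 1.5-fold and 94.0% of 2-fold changes were recovered with 3.85% false calls. The simulation gave each gene the same variability in both diets, and the changed genes were drawn at random. These rates need not hold for members with a wide control spread, such as Cyp4a10, whose control SD was above that of 99.6% of tested genes. Libraries differed by more than sampling noise (lowest chi-square per degree of freedom 12.7 over 30 pairs within groups).

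Named genes were all 10 members, from each other list at most 4 past the threshold with the largest fold (2 for markers), and the 5 genes most like the leading Cyp4a and Cyp4f member. Alternatives were DESeq2 1.42.0, limma-voom (limma 3.58.1), the likelihood ratio test, upper-quartile factors, other filters, the primary-alignment tables, 1 surrogate variable (sva 3.50.0), library totals without TMM for the sums, and leaving out each mouse. Coding sequences and coordinates are from GENCODE M21 on GRCm38 (mm10). Intervals on counts are exact Poisson intervals and cover counting error only. Cage was not used.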

Additional observations from a re-analysis of the deposited data

Results flagged for a closer look

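In 3 of 20 groups of 6 mice, 1 mouse stood farther from the rest than Dixon's 95% limit of 0.625 of the group's range, which chance gives in about 1 of 20 groups. BIBB-515 mouse 7 was high in Cyp4a12a, at 1.06 CPM beside 0.428 CPM in the next mouse (gap 0.664 of the range), and in Cyp4a12b, at 0.466 CPM beside 0.143 CPM (gap 0.824). These 2 genes share 54.9% of their coding stretches of 50 bases, so the pair is not independent. BIBB-515 mouse 6 was low in Cyp4f13, at 56.0 CPM beside 63.6 CPM in the next mouse (gap 0.812). Without it the log2 fold change of Cyp4f13 was -0.13 with an adjusted p of 0.141 (edgeR).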

How the results depend on the processing

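No paired analysis was possible because the control and BIBB-515 mice share only the number 6. No member was called higher under any of the 8 alternatives or when any of the 12 mice was left out. The count of members called lower was 2, rose to 3 with DESeq2 and with 1 surrogate variable, which add Cyp4f13, and was 1 with limma-voom, under which Cyp4a31 had a log2 fold change of -0.73 and an adjusted p of 0.097. It ranged from 0 to 3 when 1 mouse was left out, and was 0 without BIBB-515 mouse 7 or 11, 3 without control mouse 3, and 1 without any of the other 9. Cyp4f14 stayed past the threshold under all 8 alternatives (adjusted p 0.00315 to 0.0262), with a log2 fold change of -0.59 to -0.43 without 1 mouse. Cyp4a31 did so under 7 of 8 (adjusted p 0.0127 to 0.097 over the 8). The log2 fold change of Cyp4a10 was above 0 with limma-voom (0.12), with 1 surrogate variable (0.11), without control mouse 5 (0.18) and without control mouse 6 (0.05), with a range of -0.26 to 0.18 without 1 mouse, none past the threshold. All tested genes called numbered 1705, from 1489 to 2436 under the alternatives and from 1199 to 1865 without 1 mouse. The PPARα targets called went from 3 to 8 and the omega-oxidation partners from 3 to 6 with 1 surrogate variable, and DESeq2 gave 6 partners as well. Without control mouse 3 they were 6 and 5. The causes of these changes were not tested. The differences of the Cyp4a and Cyp4f sums, and the 1 called pair, kept their direction in the primary-alignment tables, as did both sums without TMM. Both differences were smaller without TMM. The Cyp4a difference, BIBB-515 minus control, was then -206 CPM beside -290 CPM with TMM. The Cyp4f difference was -62.9 beside -83.8 CPM. Depth limits Cyp4a12a and Cyp4a12b, each with at most 34 counts in a library.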
